A study of Mus musculus with 10 samples.

Results

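The genes described here are 10 genes of milk and of the secretory alveolar cell, chosen by name from a table of 55335 mouse genes: the caseins Csn1s1, Csn2 and Csn3, the other milk protein genes Wap, Lalba and Ltf, the milk fat globule genes Mfge8, Btn1a1 and Xdh, and the transcription factor gene Elf5. Their expression was measured by RNA sequencing in 10 whole mammary tumours that had grown from Wap-Myc mammary epithelial cells, in which the Wap promoter drives the oncogene Myc. The cells came from virgin mice of an FVB background, and in both groups they carried the lentiviral construct pIND21-HPN, from which doxycycline induces hepsin, a transmembrane serine protease encoded by Hpn. The 5 tumours named DOX_pos grew in hosts given doxycycline at 2 mg/ml in 5% sucrose, starting 3 days after transplantation. The 5 tumours named DOX_neg grew in hosts that drank sugar water. All hosts received cells into the mammary fat pad at 3 weeks of age, went through 2 pregnancies from 8 weeks of age to switch on Myc, and were killed when a tumour measured 1 cm. The labels do not say whether the fat pads were cleared of the host's own epithelium, whether each tumour had its own host, or how long after pregnancy a tumour was taken. The p-values set the difference between the groups against the spread between these tumours, which may not be independent of each other. Doxycycline itself cannot be told apart from hepsin induction.

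Milk genes are switched on in alveolar cells during pregnancy and lactation, when prolactin activates the transcription factor STAT5 and the ETS factor Elf5 directs progenitors into the alveolar fate. Caseins form the micelles of milk, Wap and Lalba enter its whey, and the fat is secreted in globules whose membrane carries Mfge8, Btn1a1 and Xdh. After weaning the gland involutes, the alveoli die back, and the milk genes are shut down.

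Total counts ran from 14256948 to 20469533 per tumour, apart from 39358457 in DOX_pos 3, and ribosomal and abundant non-coding loci took 24.5 to 33.3% of them. Principal component 1 took 31.0% of the variance and had DOX_neg 4 and DOX_pos 5 at its ends. DOX_neg 4 also stood at an end of most of the milk genes, so many values are also given without it. Endogenous and construct-borne Hpn were not told apart by the gene counts, and Hpn averaged 31.7 ± 8.55 CPM in DOX_pos and 21.7 ± 4.69 CPM in DOX_neg tumours (CPM, read counts scaled by TMM library sizes, SD, n = 5 each). Its log2 fold change was 0.55 (SE 0.20, edgeR adjusted p = 0.247), so the difference did not pass the test over all genes. The highest Hpn value was 46.1 CPM in DOX_pos 2, and DOX_pos 3 (25.1 CPM) lay below DOX_neg 1 (25.8 CPM). Luminal epithelial markers were present in every tumour: the 7 markers together held 1191 to 1851 CPM in DOX_pos and 1174 to 1643 CPM in DOX_neg tumours.

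Csn3 was by far the most abundant of the 10 genes and Csn2 the least, so the caseins stood at both ends of the order. Per kilobase of exon, the median level over the 10 tumours was 334 CPM for Csn3, 95.2 for Mfge8, 23.5 for Lalba, 18.3 for Elf5, 10.2 for Xdh and 6.28 for Wap. It was 0.630 CPM per kilobase for Csn1s1, 0.613 for Btn1a1, 0.469 for Ltf and 0.0322 for Csn2. With lengths taken from the longest coding transcript, chosen after seeing the data, Elf5 (42.6) passed Lalba (23.5) and the other genes kept their places. The 10 genes together took 0.291 ± 0.0482% of the counts outside ribosomal loci in DOX_pos and 0.280 ± 0.0378% in DOX_neg tumours (SD, n = 5 each). Csn3 alone gave 55.1 to 75.4% of the counts on the 10 genes in any tumour.

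Csn3 encodes kappa-casein, which coats and stabilises the casein micelle, and it did not differ detectably between the groups. The gene (ENSMUSG00000001622, GRCm38 chr5:87925579-87932665, plus strand) had 1431, 1091, 1279, 1911 and 1040.4 CPM in DOX_pos 1 to 5, against 1640.5, 1612, 1393, 847 and 1385 CPM in DOX_neg 1 to 5. The highest tumour was DOX_pos 4 and the lowest DOX_neg 4. Of the remaining tumours, the DOX_pos tumours with 1091, 1279 and 1040.4 CPM lay below every DOX_neg tumour. Only DOX_pos 1 (1431 CPM) lay among the remaining DOX_neg tumours. Its means were 1351 ± 349.7 CPM in DOX_pos and 1375 ± 318.6 CPM in DOX_neg tumours, with a log2 fold change of -0.026 (SE 0.20, edgeR adjusted p = 0.961). That fold change was -0.16 without DOX_neg 4 (SE 0.17, edgeR adjusted p = 0.733).

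Csn1s1 and Csn2, which encode the calcium-sensitive alpha-S1- and beta-caseins, lie next to each other on chromosome 5 and were both very low. Csn1s1 (ENSMUSG00000070702, GRCm38 chr5:87666208-87682578, plus strand) had 6.80, 2.50, 3.92, 1.00 and 3.44 CPM in DOX_pos 1 to 5, against 3.95, 1.68, 17.5, 9.15 and 5.02 CPM in DOX_neg 1 to 5. DOX_neg 3 and 4 lay above every DOX_pos tumour, and the other 8 tumours were intermixed. The log2 fold change was -1.06 (SE 0.60, edgeR adjusted p = 0.395), and without DOX_neg 3 it was -0.48.

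Csn2 (ENSMUSG00000063157, GRCm38 chr5:87692624-87699630, minus strand) had 12 counts or fewer in 8 of the 10 tumours. Its counts were 1, 9, 12, 0 and 70 in DOX_pos 1 to 5 and 2, 3, 12, 278 and 2 in DOX_neg 1 to 5. In CPM these were 0.0540, 0.450, 0.298, 0 and 4.23 in DOX_pos tumours, against 0.123, 0.148, 0.722, 16.1 and 0.0994 in DOX_neg tumours. A count of 0 in DOX_pos 4 allows a level of up to 0.215 CPM, a limit of 3 counts that covers counting error only. DOX_neg 4 had 58.9 times the mean of the other 4 DOX_neg tumours. Csn2 failed the filter on low counts, and a fit without that filter gave a log2 fold change of -1.83 (SE 1.32, edgeR adjusted p = 0.585). The sign rested on DOX_neg 4: without it the value was 1.86 (SE 1.15, adjusted p = 0.663), and without both DOX_neg 4 and DOX_pos 5 it was -0.22.

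The stretches before the casein and Wap starts are shown because they are classical targets of STAT5, and that of Mfge8 because its values did not overlap between the groups. They are RefSeq promoters of GRCm38.p6, 250 bases before to 50 after the start, in the direction of the gene. Capitals mark the STAT5 core TTCNNNGAA and the ETS core AGGAAG on either strand, and no 2 matches overlapped.
Csn1s1 (chr5:87665958-87666257, plus strand): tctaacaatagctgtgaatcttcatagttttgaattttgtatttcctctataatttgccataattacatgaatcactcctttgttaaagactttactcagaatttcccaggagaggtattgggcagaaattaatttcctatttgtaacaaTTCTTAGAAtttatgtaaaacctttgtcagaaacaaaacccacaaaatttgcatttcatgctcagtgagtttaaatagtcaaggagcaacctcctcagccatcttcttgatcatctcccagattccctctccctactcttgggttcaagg
Csn2 (chr5:87699376-87699675, minus strand): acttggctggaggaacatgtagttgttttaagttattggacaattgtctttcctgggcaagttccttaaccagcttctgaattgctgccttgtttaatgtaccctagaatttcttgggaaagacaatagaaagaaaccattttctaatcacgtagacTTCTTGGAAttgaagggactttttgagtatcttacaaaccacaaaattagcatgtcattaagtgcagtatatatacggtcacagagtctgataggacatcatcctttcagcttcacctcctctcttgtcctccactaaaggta
Wap (chr11:6638600-6638899, minus strand): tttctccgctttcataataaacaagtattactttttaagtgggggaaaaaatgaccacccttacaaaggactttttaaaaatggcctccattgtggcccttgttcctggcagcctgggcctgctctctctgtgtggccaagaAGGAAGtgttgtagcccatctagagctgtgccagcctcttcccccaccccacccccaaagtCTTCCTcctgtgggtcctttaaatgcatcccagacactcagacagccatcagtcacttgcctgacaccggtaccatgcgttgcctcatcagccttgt
Mfge8 (chr7:79149011-79149310, minus strand): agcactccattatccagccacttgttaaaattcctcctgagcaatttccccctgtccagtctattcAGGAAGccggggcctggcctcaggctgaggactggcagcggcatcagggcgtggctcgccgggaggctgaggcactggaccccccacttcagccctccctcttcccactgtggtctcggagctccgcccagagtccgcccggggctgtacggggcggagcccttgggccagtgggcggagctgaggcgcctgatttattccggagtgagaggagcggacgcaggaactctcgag
Among the 10 genes, 7 had a promoter in the RefSeq table and Csn3, Btn1a1 and Xdh had none there. The STAT5 core lay in the promoters of Csn1s1 (starting 100 bases before the start) and Csn2 (93 bases before), and 8.30% of all 32851 mouse promoters in the table hold it. The ETS core lay in Wap, Lalba, Mfge8 and Ltf, and 35.4% of all promoters hold it. None of the 7 genes held the nuclear factor I palindrome, which is in 0.0365% of promoters. A match in these letters is a description of the sequence and says nothing of binding.

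**Figure D1:**
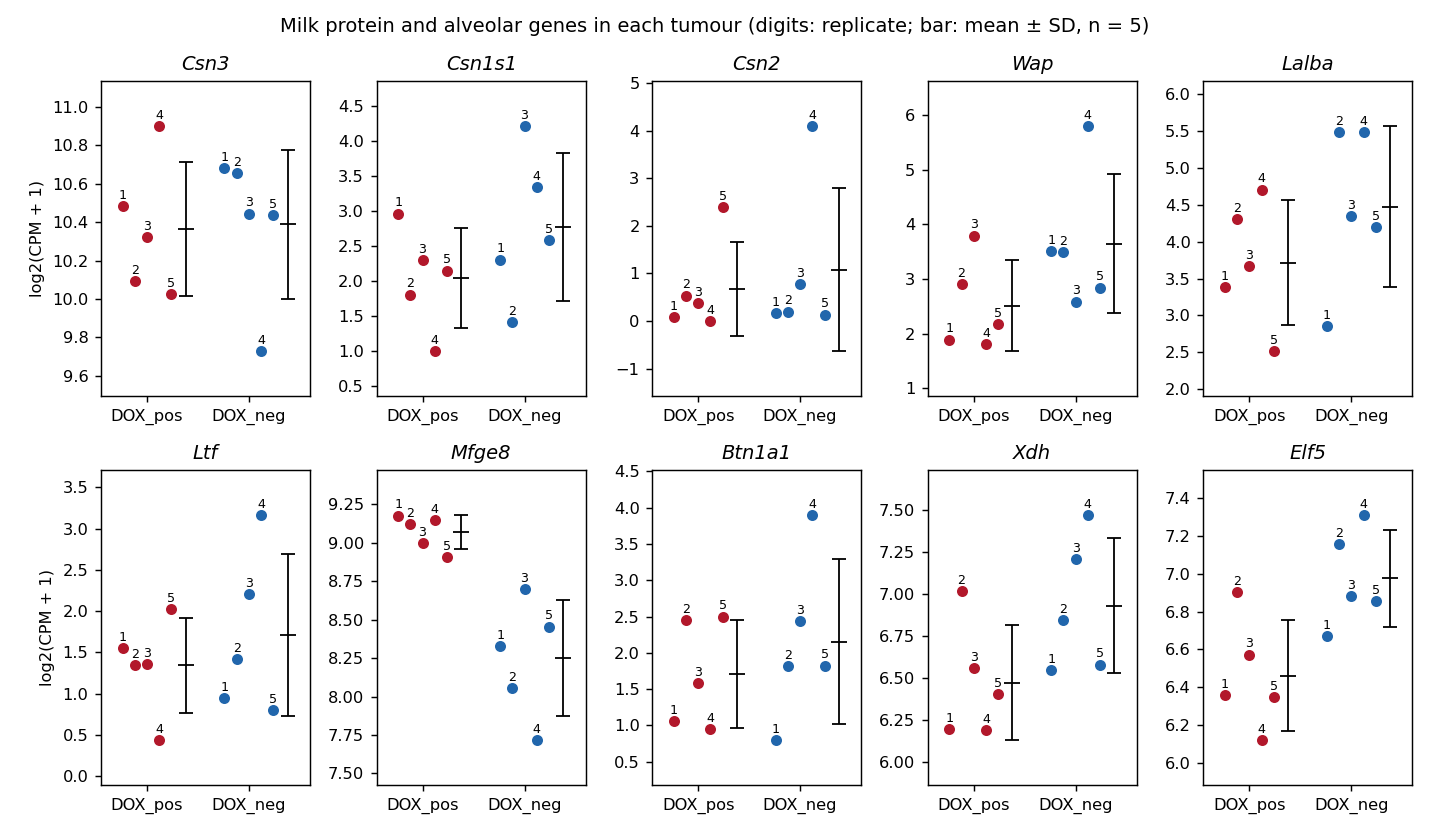
Expression of the 10 genes in every tumour as log2(CPM + 1) on the vertical axis, with DOX_pos tumours in red and DOX_neg tumours in blue, digits for replicates and bars for the mean ± SD (n = 5 each). The Mfge8 values of the groups do not overlap (479.7 CPM and above in DOX_pos, 414 CPM and below in DOX_neg), and DOX_neg 4 is the highest point for Csn2, Wap, Lalba, Ltf, Btn1a1, Xdh and Elf5.

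Wap encodes whey acidic protein, and its promoter also drives Myc in these cells. The gene (ENSMUSG00000000381, GRCm38 chr11:6635482-6638637, minus strand) had 2.70, 6.50, 12.9, 2.50 and 3.50 CPM in DOX_pos 1 to 5, against 10.4, 10.3, 5.00, 54.9 and 6.16 CPM in DOX_neg 1 to 5. DOX_pos 1, 4 and 5 lay below every DOX_neg tumour, and DOX_neg 4 lay far above all others. On the log2 scale the fold change was -1.58 (SE 0.71, unadjusted p = 0.0492, edgeR adjusted p = 0.311). Without DOX_neg 4 it was -0.47 (adjusted p = 0.737), and the other 4 DOX_neg tumours averaged 7.95 ± 2.78 CPM.

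Lalba encodes alpha-lactalbumin, the regulatory subunit of lactose synthase. The gene (ENSMUSG00000022991, GRCm38 chr15:98480400-98482721, minus strand) had 9.45, 18.9, 11.7, 25.1 and 4.71 CPM in DOX_pos 1 to 5, against 6.23, 43.9, 19.4, 44.0 and 17.4 CPM in DOX_neg 1 to 5. DOX_neg 2 and 4 were almost equal and above every DOX_pos tumour, while DOX_neg 1 was below all but one of them. Lalba had a log2 fold change of -0.91 (SE 0.53, edgeR adjusted p = 0.410), a difference within the spread between tumours. That fold change was -0.65 without DOX_neg 4 (edgeR adjusted p = 0.673).

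Ltf encodes lactoferrin, an iron-binding protein of milk, of other secretions and of neutrophil granules. It (ENSMUSG00000032496, GRCm38 chr9:111019271-111042767, plus strand) had 1.94, 1.55, 1.56, 0.358 and 3.08 CPM in DOX_pos 1 to 5, against 0.925, 1.68, 3.61, 7.99 and 0.746 CPM in DOX_neg 1 to 5. DOX_neg 3 and 4 lay above every DOX_pos tumour, DOX_neg 4 being highest, and DOX_pos 4 lay below every DOX_neg tumour. The other tumours of the groups overlapped in Ltf. Its log2 fold change of -0.80 (SE 0.66, edgeR adjusted p = 0.556) was -0.019 without DOX_neg 4. Of 12 neutrophil markers, 5 had enough counts to be tested, 3 being higher and 2 lower in DOX_pos. Their summed level was 9.30 to 30.0 CPM in DOX_pos and 12.5 to 29.5 CPM in DOX_neg tumours, of which DOX_neg 4 had the lowest. Over all tumours the 12 markers held between 2 counts (Ly6g) and 1479 counts (Mmp9). The granule genes Ngp and Camp had 3 and 6 counts, while the granule gene Mmp8 had 80 and was highest in DOX_neg 4 (1.22 CPM, against 0.121 to 0.616 CPM in the other tumours). The part of neutrophils in the Ltf values was not tested.

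Mfge8 was the one gene of the 10 that was higher in every DOX_pos tumour than in every DOX_neg tumour. It encodes milk fat globule-EGF factor 8, also called lactadherin, a secreted glycoprotein that binds phosphatidylserine and integrins and bridges dying cells to phagocytes. The gene (ENSMUSG00000030605, GRCm38 chr7:79133768-79149060, minus strand) had 578, 555, 511, 566 and 479.7 CPM in DOX_pos 1 to 5, against 321, 265, 414, 209.5 and 349.9 CPM in DOX_neg 1 to 5. The DOX_pos tumours lay close together and the DOX_neg tumours were spread more widely, with DOX_neg 4 lowest. Means were 538 ± 41.2 CPM in DOX_pos and 312 ± 78.5 CPM in DOX_neg tumours (SD, n = 5 each), a 1.72-fold difference. Over all genes, 1.82% had every DOX_pos value above every DOX_neg value, and 2.94% had groups that did not overlap in either direction. The log2 fold change was 0.79 (SE 0.15, unadjusted p = 0.000367), and edgeR's adjusted p was 0.196, so it did not pass the test over all genes. DESeq2 called it (adjusted p = 0.00144), as did limma voom with sample weights (adjusted p = 0.0341) and edgeR without DOX_neg 3 (adjusted p = 0.0430). Voom gave DOX_pos 3 a weight of 4.65, against 0.465 to 1.89 for the other tumours, so its result leans on that tumour. Without DOX_neg 4 the log2 fold change was 0.67 (SE 0.12, edgeR unadjusted p = 0.000205, adjusted p = 0.335).

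Mfge8 is also made by macrophages, endothelium and smooth muscle, and fewer cells of a type cannot be told apart from less RNA per cell in whole-tumour RNA. The 10 macrophage markers summed to 319.5 to 492 CPM in DOX_pos and 293 to 383 CPM in DOX_neg tumours, with 8 higher and 2 lower in DOX_pos (median log2 fold change 0.10). The 9 endothelial markers summed to 100.1 to 154 CPM in DOX_pos and 120.5 to 154 CPM in DOX_neg tumours, with 1 higher and 8 lower (median -0.30). The 9 myoepithelial markers, which include smooth muscle genes such as Acta2 and Myh11, summed to 120.0 to 541 CPM in DOX_pos and 95.2 to 289.9 CPM in DOX_neg tumours, and all 9 had a positive log2 fold change (median 0.48). Without DOX_neg 4, 8 of the 9 myoepithelial markers were positive (median 0.34). An unadjusted edgeR p under 0.05 was reached by 2 higher and 0 lower macrophage markers, 1 higher and 4 lower endothelial markers, and 1 higher and 0 lower myoepithelial markers. The shares of all genes were 8.20% higher and 7.83% lower. The part of these cell types in the Mfge8 difference was not tested.

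Btn1a1 and Xdh encode butyrophilin and xanthine dehydrogenase, partners that link the lipid droplet to the apical membrane during milk fat secretion. Btn1a1 (ENSMUSG00000000706, GRCm38 chr13:23456992-23465901, minus strand) had 1.08, 4.45, 1.99, 0.930 and 4.65 CPM in DOX_pos 1 to 5, against 0.740, 2.51, 4.39, 14.0 and 2.54 CPM in DOX_neg 1 to 5. DOX_neg 4 alone lay above the DOX_pos tumours, and DOX_neg 1 was the lowest tumour. Its log2 fold change of -0.88 (SE 0.70, edgeR adjusted p = 0.546) became 0.041 without DOX_neg 4.

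Xdh (ENSMUSG00000024066, GRCm38 chr17:73883895-73950196, minus strand), an enzyme of purine breakdown as well, was far more abundant than its partner. It had 72.4, 129, 93.4, 72.0 and 83.6 CPM in DOX_pos 1 to 5, against 92.6, 114, 147, 176 and 94.7 CPM in DOX_neg 1 to 5. DOX_pos 1, 4 and 5 lay below every DOX_neg tumour, and DOX_pos 2 lay among the higher ones. Means were 90.0 ± 23.3 CPM in DOX_pos and 125 ± 36.0 CPM in DOX_neg tumours, with a log2 fold change of -0.47 (SE 0.21, unadjusted p = 0.0474, edgeR adjusted p = 0.306). DOX_neg 4 was the highest tumour, and the log2 fold change was -0.32 without it (edgeR unadjusted p = 0.132, adjusted p = 0.570). A processed pseudogene, CT025731.2, overlaps Xdh on the same strand and held 202 counts over all tumours.

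Elf5, the ETS factor of alveolar and luminal progenitor cells, was lower in 4 of the 5 DOX_pos tumours than in any DOX_neg tumour. The gene (ENSMUSG00000027186, GRCm38 chr2:103411688-103450989, plus strand) had 81.1, 119, 94.2, 68.6 and 80.4 CPM in DOX_pos 1 to 5, against 101, 142, 117, 158 and 115 CPM in DOX_neg 1 to 5. DOX_pos 2 was the exception, within the DOX_neg range. Means were 88.6 ± 19.1 CPM in DOX_pos and 126 ± 23.0 CPM in DOX_neg tumours. The log2 fold change was -0.51 (SE 0.16, unadjusted p = 0.00773, edgeR adjusted p = 0.230), and without DOX_neg 4 it was -0.42 (adjusted p = 0.446). The adjusted p was 0.0751 by DESeq2 and 0.0672 by limma voom.

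**Figure D2:**
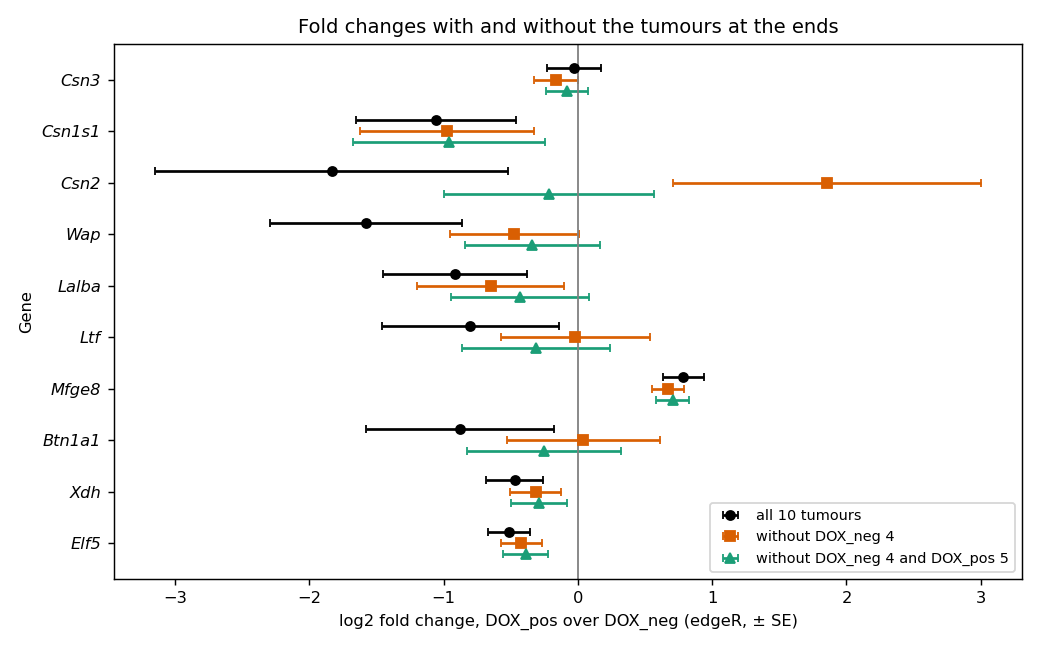
Log2 fold change of each gene, DOX_pos over DOX_neg, on the horizontal axis with bars of 1 SE, from edgeR with all 10 tumours (circles), without DOX_neg 4 (squares) and without both DOX_neg 4 and DOX_pos 5 (triangles), with Csn2 from fits without a filter on low counts. Mfge8 stays between 0.67 and 0.79 and Elf5 between -0.51 and -0.39, while Csn2, Wap, Btn1a1 and Ltf move towards or past 0 without DOX_neg 4.

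Over the 9 genes that passed the filter on low counts, edgeR's quasi-likelihood test called 0 at an adjusted p under 0.05, as it called 0 of all 16167 genes tested (0%, smallest adjusted p 0.140). DESeq2 called 1 of them (Mfge8) and 1.99% of all genes, and limma voom called 1 (Mfge8) and 4.79% of all genes. An unadjusted edgeR p under 0.05 was reached by 4 of the 9, against 16.0% of all genes. Mfge8 was the 1 higher in DOX_pos, against 8.20% of all genes, and Wap, Elf5 and Xdh were the 3 lower, against 7.83%. The median log2 fold change of the 9 genes was -0.80, with 8 of 9 below 0, beside a median of 0.0024 over all genes. Without DOX_neg 4 the median was -0.32, and Mfge8 and Elf5 reached an unadjusted p under 0.05, as did 10.6% of all genes. Without both DOX_neg 4 and DOX_pos 5 the same 2 genes reached it, against 8.54% of all genes.

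Single tumours set much of this pattern. DOX_neg 4 was the highest of the 10 tumours in 7 genes (Csn2, Wap, Lalba, Elf5, Btn1a1, Xdh and Ltf) and the lowest in 2 (Csn3 and Mfge8). DOX_pos 4 was the lowest in 6 (Csn1s1, Csn2, Wap, Elf5, Xdh and Ltf) and the highest in Csn3. The highest tumour had 22.3 times the level of the lowest in Ltf, 21.9 times in Wap, 18.9 times in Btn1a1, 17.5 times in Csn1s1 and 9.33 times in Lalba. The lowest tumour had only 5 counts in Ltf, 35 in Wap, 12 in Btn1a1 and 14 in Csn1s1, so these ratios also carry counting error. The range was far narrower in Mfge8 (2.76 times), Xdh (2.45 times), Elf5 (2.30 times) and Csn3 (2.26 times).

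**Figure D3:**
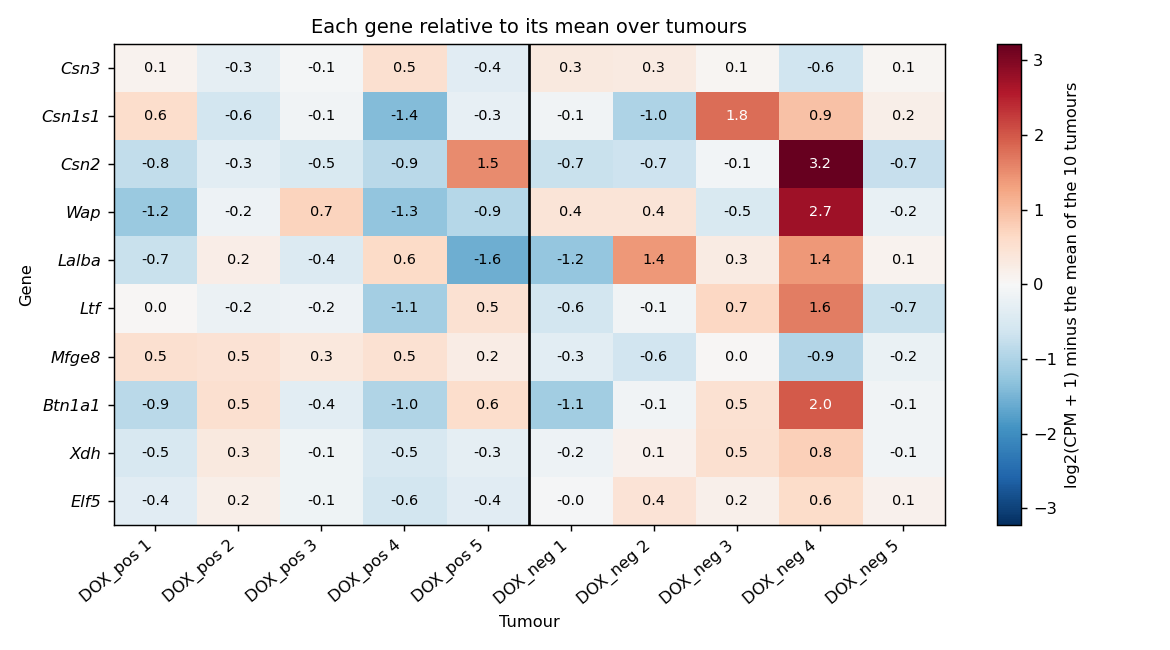
Heat map of each gene's log2(CPM + 1) minus its mean over the 10 tumours, with genes in rows and tumours in columns, DOX_pos on the left and DOX_neg on the right. The DOX_pos 4 column holds the lowest value of 6 genes and the highest of Csn3, and the DOX_neg 4 column holds the highest value of 7 genes and the lowest of Csn3 and Mfge8.

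The 10 genes did not vary as one block over the tumours. Pearson and Spearman correlations of log2(CPM + 1) over the 10 tumours were computed for all 66 pairs of the 10 genes with Myc and Hpn, with two-sided permutation tests and adjustment over the 66 pairs. By Pearson's r, 13 pairs passed at an adjusted p under 0.05, of which 11 were among the 45 pairs of milk genes, 6 positive and 5 negative. By Spearman's rho 2 pairs passed.

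The positive pairs linked Csn2, Btn1a1 and Ltf with each other, Xdh with Btn1a1 and Elf5, and Elf5 with Wap. Elf5 and Xdh had r = 0.88 (permutation p = 0.00068, adjusted 0.0144) and rho = 0.93 (permutation p = 0.0004, adjusted 0.0264). Csn2 and Btn1a1 had r = 0.86 (permutation p = 0.0001, adjusted 0.0066) and rho = 0.84 (permutation p = 0.00379, adjusted 0.0834). The negative pairs set Csn3 against Btn1a1, Csn2 and Ltf, and Mfge8 against Elf5 and Wap. Csn3 and Btn1a1 had r = -0.87 (permutation p = 0.00087, adjusted 0.0144) and rho = -0.88 (permutation p = 0.00146, adjusted 0.0482). Elf5 and Mfge8 had r = -0.80 (permutation p = 0.00571, adjusted 0.0367) and rho = -0.70 (permutation p = 0.0304, adjusted 0.208).

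Myc is carried as a transgene under the Wap promoter, and the gene counts did not tell the transgene apart from endogenous Myc. The Myc gene had 294, 511, 348, 415 and 315 CPM in DOX_pos 1 to 5, against 377, 397, 425, 608 and 359.7 CPM in DOX_neg 1 to 5. DOX_neg 4 was highest in Myc as in Wap, and the groups overlapped. The log2 fold change of Myc was -0.20 (SE 0.18, edgeR adjusted p = 0.582). Wap and Myc had r = 0.65 (permutation p = 0.0440, adjusted 0.138) and rho = 0.33 (permutation p = 0.350, adjusted 0.549), and r was 0.21 without DOX_neg 4. Xdh and Myc were the one pair with Myc that passed, with r = 0.81 (permutation p = 0.00412, adjusted 0.0340) and rho = 0.70 (permutation p = 0.0301, adjusted 0.208). Mfge8 and Hpn had r = 0.75 (permutation p = 0.00910, adjusted 0.0462) and rho = 0.75 (permutation p = 0.0177, adjusted 0.167). Their r was 0.55 without DOX_neg 4. With values centred within each group, 10 pairs passed by the permutation test in place of 13. The pairs that lost their call were Mfge8 with Hpn (r = 0.48, permutation adjusted p = 0.274), Elf5 with Mfge8 (r = -0.50, permutation adjusted p = 0.251) and Wap with Elf5 (r = 0.67, permutation adjusted p = 0.133).

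Without the 2 tumours farthest from the median of the first gene, 0 of the 66 pairs passed by the permutation test, which then had 8 tumours a pair, so no call held without those tumours. All 13 pairs that had passed kept their sign, the weakest being Csn3 with Ltf (r = -0.39). For Elf5 and Xdh r was then 0.77, for Csn2 and Btn1a1 0.82, for Csn3 and Btn1a1 -0.70, for Elf5 and Mfge8 -0.64, and for Mfge8 and Hpn 0.61. DOX_neg 4 was among the tumours left out in each of these pairs.

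**Figure D4:**
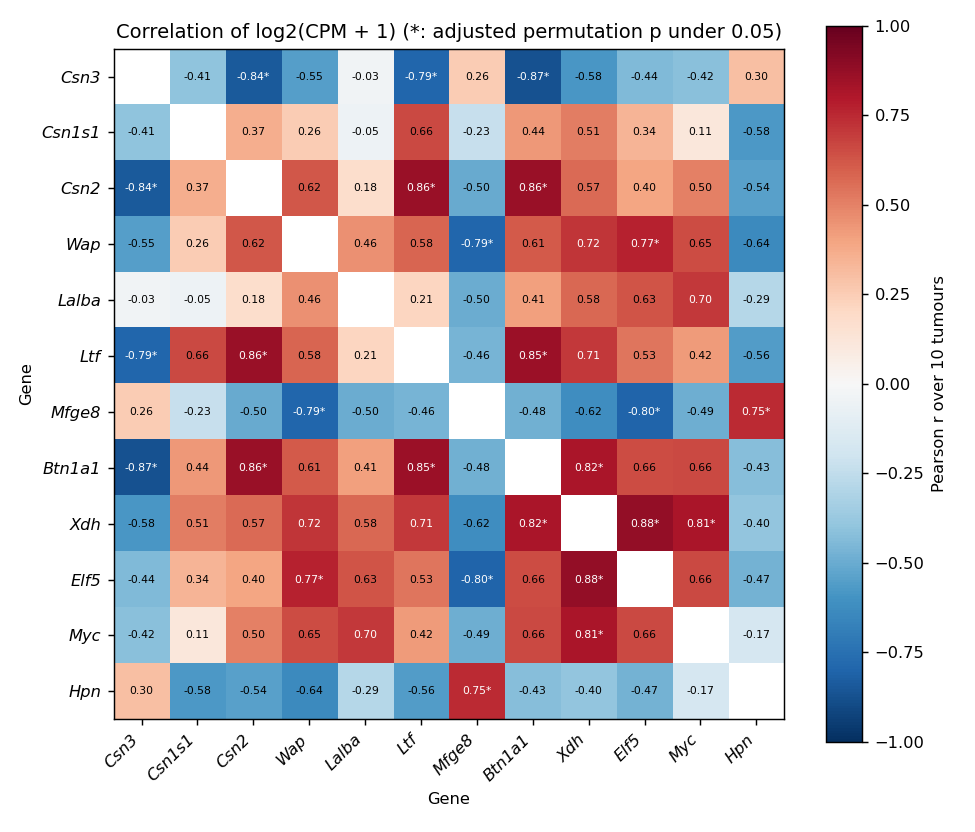
Pearson r of log2(CPM + 1) over the 10 tumours for each pair of the 10 genes, Myc and Hpn, with the value in each cell, an asterisk for an adjusted permutation p under 0.05 and colour from blue (negative) to red (positive). Csn3 is opposed to Csn2 (-0.84) and Btn1a1 (-0.87), and Mfge8 to Elf5 (-0.80) and Wap (-0.79), while Elf5 and Xdh share an r of 0.88.

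In 4 lists of the wider alveolar programme, no tested gene passed edgeR's adjusted test, and the lists are described by counts and medians. Of 22 other milk and secretory genes 14 were tested, 6 with a positive and 8 with a negative log2 fold change (median -0.042). Without DOX_neg 4 the direction turned, with 8 of the 14 positive and a median of 0.072. An unadjusted p under 0.05 was reached by 1 higher and 3 lower of the 14, against 8.20% and 7.83% of all genes. Trf, which encodes the iron carrier transferrin, averaged 3015 ± 896 CPM in DOX_pos and 2038 ± 242 CPM in DOX_neg tumours (log2 fold change 0.56, SE 0.19, edgeR adjusted p = 0.241). Folr1, a folate receptor, averaged 13.0 ± 4.44 CPM in DOX_pos and 23.0 ± 8.45 CPM in DOX_neg tumours (log2 fold change -0.82, SE 0.28, edgeR adjusted p = 0.241). The milk genes Csn1s2a, Csn1s2b and Glycam1 were too low to test, with 41, 66 and 15 counts over all 10 tumours.

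Among 21 genes of the prolactin and STAT5 pathway 20 were tested, 9 with a positive and 11 with a negative log2 fold change (median -0.050, and -0.041 without DOX_neg 4). An unadjusted p under 0.05 was reached by 4 higher and 2 lower of the 20, against 8.20% and 7.83% of all genes. Id2, a helix-loop-helix inhibitor that alveolar development needs, averaged 84.7 ± 8.65 CPM in DOX_pos and 110.5 ± 11.5 CPM in DOX_neg tumours (log2 fold change -0.38, SE 0.09, edgeR adjusted p = 0.196). Ptpn1, a tyrosine phosphatase that acts on the JAK2 pathway, averaged 73.9 ± 9.38 CPM in DOX_pos and 58.1 ± 4.27 CPM in DOX_neg tumours (log2 fold change 0.35, SE 0.09, edgeR adjusted p = 0.196). All 5 DOX_pos tumours lay below every DOX_neg tumour in Id2, as 1.13% of all genes did, and above every one in Ptpn1, as 1.82% of all genes did.

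All 19 genes of milk lipid synthesis were tested, 8 with a positive and 11 with a negative log2 fold change (median -0.013, and -0.020 without DOX_neg 4). An unadjusted p under 0.05 was reached by 0 higher and 3 lower of the 19, against 8.20% and 7.83% of all genes. Acly, which makes the acetyl-CoA for fatty acid synthesis, averaged 258 ± 36.2 CPM in DOX_pos and 334 ± 49.9 CPM in DOX_neg tumours (log2 fold change -0.37, SE 0.12, edgeR adjusted p = 0.236). Lpin1, a phosphatidate phosphatase of triglyceride synthesis, averaged 20.9 ± 3.80 CPM in DOX_pos and 26.4 ± 2.98 CPM in DOX_neg tumours (log2 fold change -0.34, SE 0.14, edgeR adjusted p = 0.272).

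All 20 involution genes were tested, 14 with a positive and 6 with a negative log2 fold change (median 0.33, and 0.24 without DOX_neg 4). An unadjusted p under 0.05 was reached by 5 higher and 0 lower of the 20, against 8.20% and 7.83% of all genes. Igfbp5, an insulin-like growth factor binding protein secreted in the involuting gland, had 1716, 1827, 1976, 2076 and 1733 CPM in DOX_pos 1 to 5, against 815, 959, 1507, 1066 and 1601 CPM in DOX_neg 1 to 5. Every DOX_pos tumour lay above every DOX_neg tumour, as in 1.82% of all genes, with a log2 fold change of 0.65 (SE 0.17, edgeR adjusted p = 0.196). Socs3, a feedback inhibitor of cytokine signalling that is also in the prolactin list, averaged 35.4 ± 6.65 CPM in DOX_pos and 21.6 ± 8.66 CPM in DOX_neg tumours (log2 fold change 0.72, SE 0.26, edgeR adjusted p = 0.249).

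**Figure D5:**
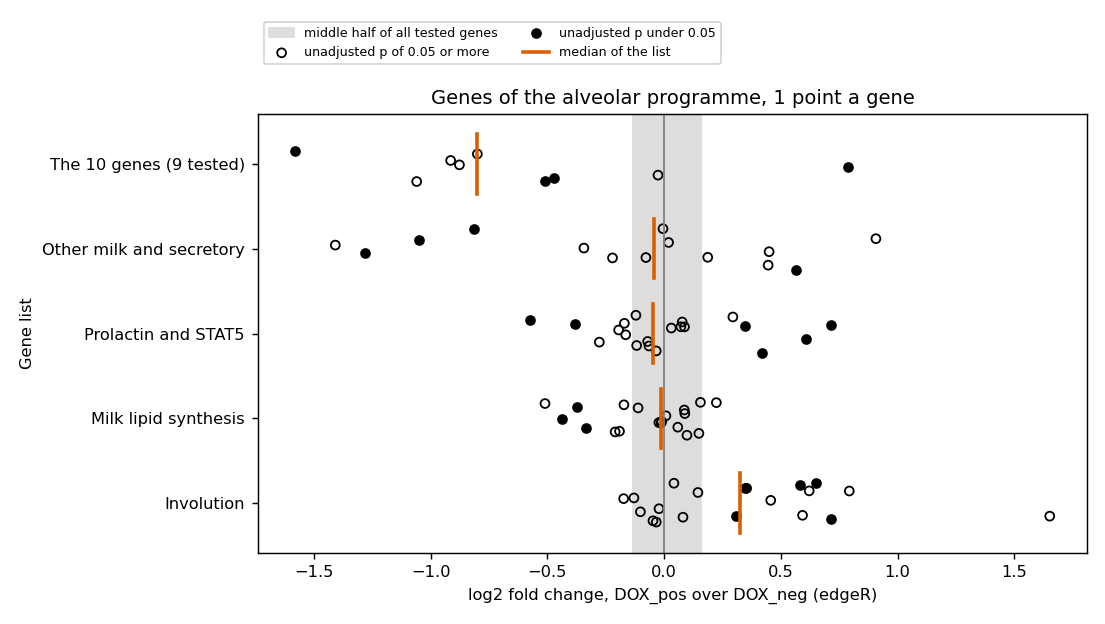
Log2 fold change, DOX_pos over DOX_neg, for each tested gene of the 10 described here and of 4 lists of the alveolar programme, with filled points for an unadjusted edgeR p under 0.05, an orange bar for the list's median and a grey band for the middle 50% of all tested genes. The medians are -0.80 for the 10 genes (9 tested), 0.33 for involution and within 0.05 of 0 for the other 3 lists.

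Markers of other cells are given for comparison, and none of them was at 0 in all tumours. Luminal epithelial markers had 6 of 7 with a positive log2 fold change (median 0.23), luminal progenitor markers 4 of 6 (median 0.26, Elf5 among them as a negative one), and hormone-sensing luminal markers 3 of 5 tested (median 0.73). Fibroblast markers had 1 of 6 positive (median -0.66) and summed to 22.5 to 105 CPM in DOX_pos and 50.6 to 102 CPM in DOX_neg tumours. An unadjusted edgeR p under 0.05 was reached by 2 higher and 0 lower luminal epithelial markers and by 0 higher and 1 lower progenitor markers. It was reached by 2 higher and 0 lower hormone-sensing markers and by 0 higher and 2 lower fibroblast markers. Over all genes the shares were 8.20% higher and 7.83% lower. Of 6 adipocyte markers 2 were tested. Plin4 had a log2 fold change of 1.40 (edgeR unadjusted p = 0.0334, adjusted p = 0.280). Fabp4 hardly differed (0.053, edgeR unadjusted p = 0.899, and -0.016 without DOX_neg 4). The untested Adipoq, Plin1, Cidec and Lep had 32, 58, 23 and 17 counts over all tumours, and Adipoq and Lep had 0 in every DOX_neg tumour. Of 6 B and plasma cell markers 1 was tested, with a positive log2 fold change. The part of these cell types in the differences of the milk genes was not tested.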

How the data were processed

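Whole-tumour RNA was depleted of ribosomal RNA and read single-end to 75 bp from directional libraries, per the labels' protocols, after cells had been transduced at a multiplicity of 10. The authors deposited whole-number read counts per Ensembl gene, not normalised. Per the submitters' processing notes, bcl2fastq, Trimmomatic, STAR 2.6.0c, featureCounts, DESeq2 and GRCm38 were used. Neither the annotation release nor the strand setting is given in the sources used here, so a gene and an antisense partner may share counts. Csn3 has such a partner, 1700066N21Rik, which had 0 counts.

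Names matched 55154 of 55335 identifiers, and coordinates came from GENCODE M21 (GRCm38). Groups and replicate numbers came from the sample titles. No library was a repeat of another in its group: chi-square values per degree of freedom were 6.76 to 41.9. Differences were tested with edgeR 4.0.16 in R 4.3.3 (TMM, filterByExpr with a minimum count of 10 and total of 15, quasi-likelihood test, no block, Benjamini-Hochberg over 16167 genes, threshold 0.05). The SE is the log2 fold change over the square root of F. CPM use the TMM-scaled library sizes. Fold changes of genes with few counts carry large counting error. Alternatives were DESeq2 1.42.0, limma 3.58.1 voom with sample weights, other scalings and filters, a replicate block and each tumour left out. Correlations used 100000 resamples.

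The genes and lists were chosen with earlier results of these data known. All 10 genes are named with Myc and Hpn, 2 genes with the smallest p of each pathway list, and the 3 genes most like Csn2, Elf5, Mfge8 and Ltf. Other genes were named after their values were seen.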

Additional observations from a re-analysis of the deposited data

Results flagged for a closer look

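In groups of 5 tumours, a tumour was taken as standing apart when its gap to the nearest other exceeded Dixon's 95% critical value of 0.71 of the group's range. Genes were examined on the log2(CPM + 1) scale, and the share of counts on the 10 genes in percent. Chance gives about 1 such tumour in 20 groups of normally spread values, and 26 groups were examined, and 4 such tumours were found. The 26 groups share the same 10 tumours and are not independent, so the count of 4 cannot be tested against that rate. Csn2 stood apart in DOX_pos 5 at 4.23 CPM, where the other DOX_pos tumours had 0 to 0.450 CPM. Csn2 also stood apart in DOX_neg 4 at 16.1 CPM, where the other DOX_neg tumours had 0.0994 to 0.722 CPM. Csn3 was low in DOX_neg 4 at 847 CPM, where the others of its group had 1385 to 1640.5 CPM. Wap was high in DOX_neg 4 at 54.9 CPM, where the others had 5.00 to 10.4 CPM. Of the 4 values, 3 come from DOX_neg 4.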

How the results depend on the processing

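Counts of genes depended on the tool. At an adjusted p under 0.05, edgeR called 0 genes, DESeq2 322, limma voom with sample weights 775 and edgeR with a replicate block 7. Each tumour left out in turn gave 0 to 37 genes, 37 without DOX_neg 3 and 2 without DOX_pos 2. Of the milk genes, DESeq2 and voom called 1 each, the block called 0, and leaving out a tumour called 0 to 1, Mfge8 in each case. At an unadjusted p under 0.05, 2592 genes passed, 4394 by voom, 1384 without both DOX_neg 4 and DOX_pos 5, 2771 with the block, and 1730 to 3462 with a tumour left out. Scaling by library size only made 67.8% of 2307 such genes higher in DOX_pos, against 51.2% of 2592. The labels do not say that a replicate number marks a shared day or host, and the numbers were not used as pairs: same-numbered tumours deviated together with r of 0.0706 to 0.264, over 0.1 in 4 of 5 numbers, and the tumours did not all match their own number best. With the block, log2 fold changes were -0.51 for Csn2, -0.47 for Btn1a1 and -0.41 for Ltf, and no milk gene changed sign.

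Signs turned for Csn2 without DOX_neg 4 (1.86), Ltf by voom (0.060), Btn1a1 without DOX_neg 4 (0.041) and Csn3 without DOX_neg 1, DOX_neg 2, DOX_pos 2 or DOX_pos 5 (range over tumours left out -0.19 to 0.054). With a tumour left out, log2 fold changes ran from 0.67 to 0.90 for Mfge8, -0.64 to -0.42 for Elf5, -0.64 to -0.32 for Xdh, -2.17 to -0.47 for Wap, -1.22 to -0.65 for Lalba, -1.42 to -0.48 for Csn1s1, -1.17 to 0.041 for Btn1a1, -1.10 to -0.019 for Ltf and -3.87 to 1.86 for Csn2. By voom, which gave DOX_pos 3 a weight of 4.65 and the other tumours 0.465 to 1.89, Wap was -0.096. Without the 2 tumours farthest from the median, 0 correlations passed, and with values centred within each group 10 did. As a share of all counts, the milk genes took 0.211% in DOX_pos and 0.198% in DOX_neg tumours. The cause of these shifts was not tested. DESeq2 gave Csn2 no p, and a filter of 1 CPM in 5 libraries left it out. Depth limits Csn2 most, with 0 to 278 counts a tumour.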

Other observations

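The genes whose levels followed a milk gene most closely over the 10 tumours were searched among 10448 genes with a mean of at least 5 CPM, as a description. For Elf5 they were Zfp710 (r = 0.97, rho = 0.96), Jtb (r = 0.97, rho = 0.95) and Ccdc57 (r = 0.97, rho = 0.99). Their r was 0.94, 0.96 and 0.96 without the 2 tumours farthest from the median. For Mfge8 they were Hip1 (r = 0.99, rho = 0.96), which encodes a clathrin adaptor, Trpv4 (r = 0.97, rho = 0.99), a calcium-permeable channel, and Pkp3 (r = 0.97, rho = 0.96), a desmosomal plakophilin. Like Mfge8, these had positive log2 fold changes (Hip1 0.79, Trpv4 1.09, Pkp3 0.49). Like Elf5, its closest genes had negative ones (Zfp710 -0.20, Jtb -0.23, Ccdc57 -0.31). These r values therefore include the difference between the groups, and r within the groups was not computed for them.

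For Ltf the closest genes were Pkp2 (r = 0.95, rho = 0.98), a desmosomal plakophilin, Kat8 (r = 0.90, rho = 0.78) and Ggnbp2 (r = 0.89, rho = 0.76). For Csn2 they were Tbc1d1 (r = 0.89, rho = 0.68), Pfdn5 (r = 0.86, rho = 0.59) and Nbeal2 (r = 0.85, rho = 0.88). Without the 2 farthest tumours r with Csn2 was 0.40 for Pfdn5 and 0.86 for Tbc1d1. The closest genes were picked as the highest of 10448, so these values carry no test, and all share the same libraries and depth.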
